A study of Homo sapiens with 6 samples.

Results

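The genes described here are 54 genes of DNA replication, covering origin licensing, the replicative helicase, the polymerases, the sliding clamp, deoxynucleotide supply and fork protection. They were chosen by symbol from a list drawn up with earlier results of these data known. Each was read from whichever of its probe sets was brightest on average, and all 54 were found among the 18417 genes measured. Expression had been profiled on 6 microarrays of Du145, a human prostate carcinoma line, held at 1% oxygen for 24 h in every group. The 3 groups had 2 arrays each: shTSC2 cells, infected with a lentivirus to knock down TSC2; shTSC2-adapted cells, which the labels describe as adapted from that knockdown; and control cells. What the adaptation consisted of, whether the control cells received a virus and whether the arrays of a group came from separate cultures are not given, so the p-values cover array-to-array spread alone, and that spread may be technical. The questions posed by the design are how TSC2 knockdown changes transcripts in hypoxic cells and how adapted knockdown cells compare with both other groups.

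DNA replication is prepared in G1, when the origin recognition complex (ORC), CDC6 and CDT1 load the ring-shaped MCM helicase onto chromatin. At the start of S phase the kinase CDC7 with its activator DBF4, together with cyclin-dependent kinases, brings in CDC45 and the GINS complex and starts the helicase. Many of these genes are transcribed in a cell-cycle-dependent way through E2F factors at the G1/S boundary, whereas many genes of mitosis peak later and carry CHR promoter elements. TSC2 acts with TSC1 to hold back mTORC1, a kinase that drives cell growth. In bulk RNA, fewer cells in a cell-cycle phase and less RNA per cell cannot be told apart.

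TSC2 itself had log2 intensities of 6.67 and 6.55 in shTSC2, 6.54 and 6.48 in shTSC2-adapted and 7.52 and 7.59 in control, so all knockdown arrays lay below both control arrays. The difference was -0.95 (SE 0.10, adjusted p = 0.00102) for shTSC2 against control and -1.05 (SE 0.10, adjusted p = 0.0241) for shTSC2-adapted against control. The second difference was -1.08 to -1.01 when any 1 of the 4 arrays compared was left out. Its call then ended, as did every other call in that comparison. With a replicate block the TSC2 call also ended (adjusted p = 0.0515), a setting in which 1 of 18417 genes was called in that comparison. Arrays have no read depth, and their number limits the precision. Median intensities were 58.1 to 63.1. Summed intensities of 8 epithelial markers were 7445 to 7778 in shTSC2, 7856 to 7906 in shTSC2-adapted and 6549 to 6926 in control. The epithelial keratins KRT8 and KRT18 were at 11.22 or more on every array, while CDH1, which encodes E-cadherin, was at 5.65 and 5.54 in shTSC2, 7.54 and 6.73 in shTSC2-adapted and 5.67 and 5.80 in control. Of the 8, KRT19 (-1.38, adjusted p = 0.00664) and EPCAM (-1.29, adjusted p = 0.0271) fell and KRT7 (0.44, adjusted p = 0.0225) rose in shTSC2 against control, and KRT19 (1.55), EPCAM (1.65), CDH1 (1.54) and CLDN7 (0.69) were higher in shTSC2-adapted than in shTSC2 cells. The 3 calls against control ended without control array 1 (adjusted p = 0.0655, 0.181 and 0.0888), those of EPCAM and KRT7 also without control array 2 (0.0854 and 0.189), that of EPCAM without shTSC2 array 1 (0.0593) and that of KRT7 without shTSC2 array 2 (0.0649) or with median centring (0.0757), and those of EPCAM and CLDN7 against shTSC2 ended without either shTSC2-adapted array (0.0590 to 0.0992). Of the luminal prostate markers measured, KLK2 and KLK3 lay at 5.01 to 5.60, below the median of all probe sets (5.91). Summed intensities of 7 embryonic kidney markers were 517 to 584 in shTSC2, 478 to 632 in shTSC2-adapted and 428 to 447 in control, and 2 of the 7, PAX2 and NEFM, rose in shTSC2. Those of 7 lymphoid and myeloid markers were 494 to 513, 387 to 412 and 356 to 365 in the same groups, with rises of CD68 and FCER1G in shTSC2, while the leukocyte marker PTPRC stayed at 3.49 to 3.58. None of 7 stromal markers and 1 of 8 neuroendocrine markers (SNAP25, higher) passed in shTSC2 against control. Leaving out either control array ended the calls of PAX2, NEFM, FCER1G and SNAP25, and leaving out control array 2 that of CD68. The FCER1G call also ended without shTSC2 array 1 or with a trend over gene length removed (adjusted p = 0.0792). That of SNAP25 ended without either shTSC2 array, with median centring (0.0906) or with the replicate block (0.0555). The part of other cell types in the results below was not tested.

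The promoters of the replication genes and of mitotic genes held motifs in different proportions, a property of the reference sequence and not of these arrays. Windows of 250 bases before the start were available from RefSeq (GRCh38.p14) for 48 of the 54 genes, and a gene with several starts counted if any of its windows held a match. An E2F motif (TTTCCCGC, TTTCGCGC, TTTGCCGC or TTTGGCGC, either strand) was found in 16 of the 48 (33.3%), against 2 of 19 mitotic genes (10.5%) and 4.66% of 14239 genes tested. A CHR element (TTTGAA or TTTAAA, either strand) was in 7 of 48 replication genes (14.6%), against 16 of 19 mitotic genes (84.2%) and 22.5% of all genes. The class of nucleotide supply and uracil removal held 4 of those 7 matches, in RRM1, RRM2, TK1 and UNG. The search was for 6 letters alone, and whether any match works as a CHR element was not tested. CCAAT boxes were in 60.4% of the replication genes, 84.2% of the mitotic genes and 40.4% of all genes.

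Windows of 120 bases are shown as examples of members that rose (CDT1, MCM7), fell (ORC3, ORC5) or did not pass (POLA2, PCNA) in shTSC2. They do not reflect how often a match occurs. An E2F match was in 5 of 10 members that rose and had a window, 2 of 9 that fell and 9 of 29 that did not pass. MCM7 and PCNA have further starts, whose windows hold no E2F match. Capitals mark E2F matches, and ORC5 has none in its window. They lie just before the most upstream start, at chr16:88803669-88803788 (plus strand) for CDT1, chr7:100101398-100101517 (minus strand) for MCM7, chr11:65261842-65261961 (plus strand) for POLA2, chr20:5126623-5126742 (minus strand) for PCNA, chr6:87590015-87590134 (plus strand) for ORC3 and chr7:104208014-104208133 (minus strand) for ORC5, GRCh38.p14, each printed 5′ to 3′ in the direction of the gene.
CDT1: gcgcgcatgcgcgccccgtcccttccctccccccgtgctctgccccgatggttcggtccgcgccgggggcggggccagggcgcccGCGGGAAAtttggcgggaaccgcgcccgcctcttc
MCM7: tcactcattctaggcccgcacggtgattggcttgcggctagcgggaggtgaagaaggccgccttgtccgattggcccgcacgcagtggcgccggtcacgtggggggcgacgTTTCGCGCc
POLA2: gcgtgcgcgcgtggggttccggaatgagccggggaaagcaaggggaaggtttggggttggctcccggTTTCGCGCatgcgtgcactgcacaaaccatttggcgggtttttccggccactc
PCNA: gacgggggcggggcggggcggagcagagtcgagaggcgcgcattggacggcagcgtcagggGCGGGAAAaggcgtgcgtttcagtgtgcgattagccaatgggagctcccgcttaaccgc
ORC3: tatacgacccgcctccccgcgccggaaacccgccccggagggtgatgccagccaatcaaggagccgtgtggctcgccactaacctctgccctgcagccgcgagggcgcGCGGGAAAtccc
ORC5: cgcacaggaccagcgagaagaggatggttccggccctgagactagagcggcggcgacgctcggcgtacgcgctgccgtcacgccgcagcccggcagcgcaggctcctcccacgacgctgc

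**Figure D1:**
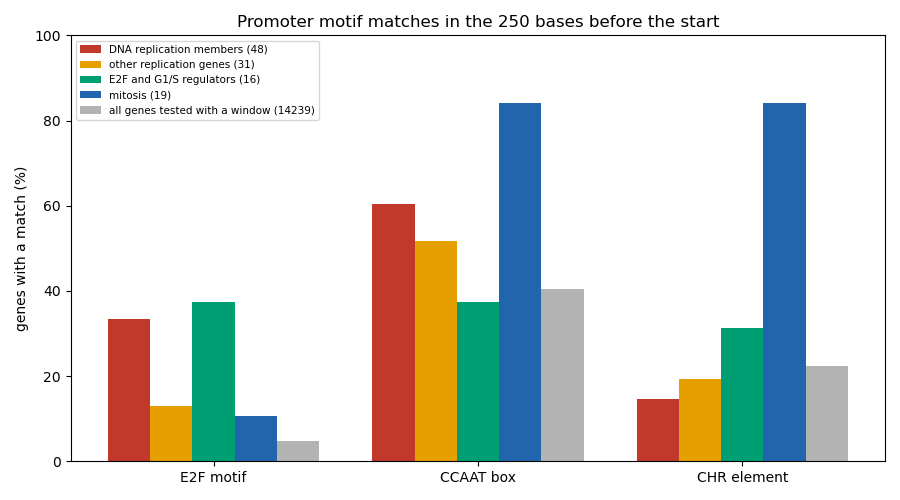
Bars give the percentage of genes (vertical axis) with at least 1 match to an E2F motif, a CCAAT box or a CHR element in the 250 bases before a start, for the DNA replication genes, other replication genes, E2F and G1/S regulators, mitotic genes and all genes tested with a window (numbers of genes in the legend). E2F matches stand at 33.3% of replication genes and 10.5% of mitotic genes, and CHR matches at 14.6% and 84.2%.

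In shTSC2 cells the replication genes split: 13 rose and 10 fell against control, and 31 did not pass. All values are log2 intensities, a change is a difference of group means with its standard error (SE, from 2 arrays in each group), and limma supplied the adjusted p-values over 18417 genes, with 0.05 as the threshold. The 23 calls make up 42.6% of the 54 genes, against 20.8% of all genes tested. Of all genes 6.87% rose and 13.9% fell, so the 10 falls lay nearer to the share of all genes than the 13 rises. The 54 genes were chosen with earlier results of these data known, so these shares are a description. The median difference was 0.05 in the replication genes and 0.03 over all genes, with a range of -0.90 to 1.07. Of the 54 differences, that of UNG alone was above 2-fold. The balance depended on scaling, at 18 rises and 8 falls with quantile normalization and 10 and 12 with each array centred on the median of all probe sets. Without control array 1 there were 5 rises and 3 falls, and without control array 2 there were 4 and 5. Calls in ORC5, TOPBP1, POLE3, RFC1, RFC5, UNG and TIPIN held under all 16 alternative settings run, 3 of which are the same fit.

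Against shTSC2, the shTSC2-adapted cells had 10 genes higher and 4 lower (25.9% of the 54), where 12.5% of all genes were called, 9.25% higher and 3.24% lower. At an unadjusted p of at most 0.05 by limma, 27 of the 54 were reached here, with 27% of all genes, and 31 of the 54 in shTSC2 against control, with 33.3% of all genes. Against control, none of the 54 passed in shTSC2-adapted cells, where 0.261% of all genes were called (0.0543% higher and 0.206% lower), and this comparison is taken up after the classes. The comparisons share arrays (the shTSC2 arrays in the first and last named, the control arrays in both comparisons with control), so their values are given side by side and not as independent support for each other.

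**Figure D2:**
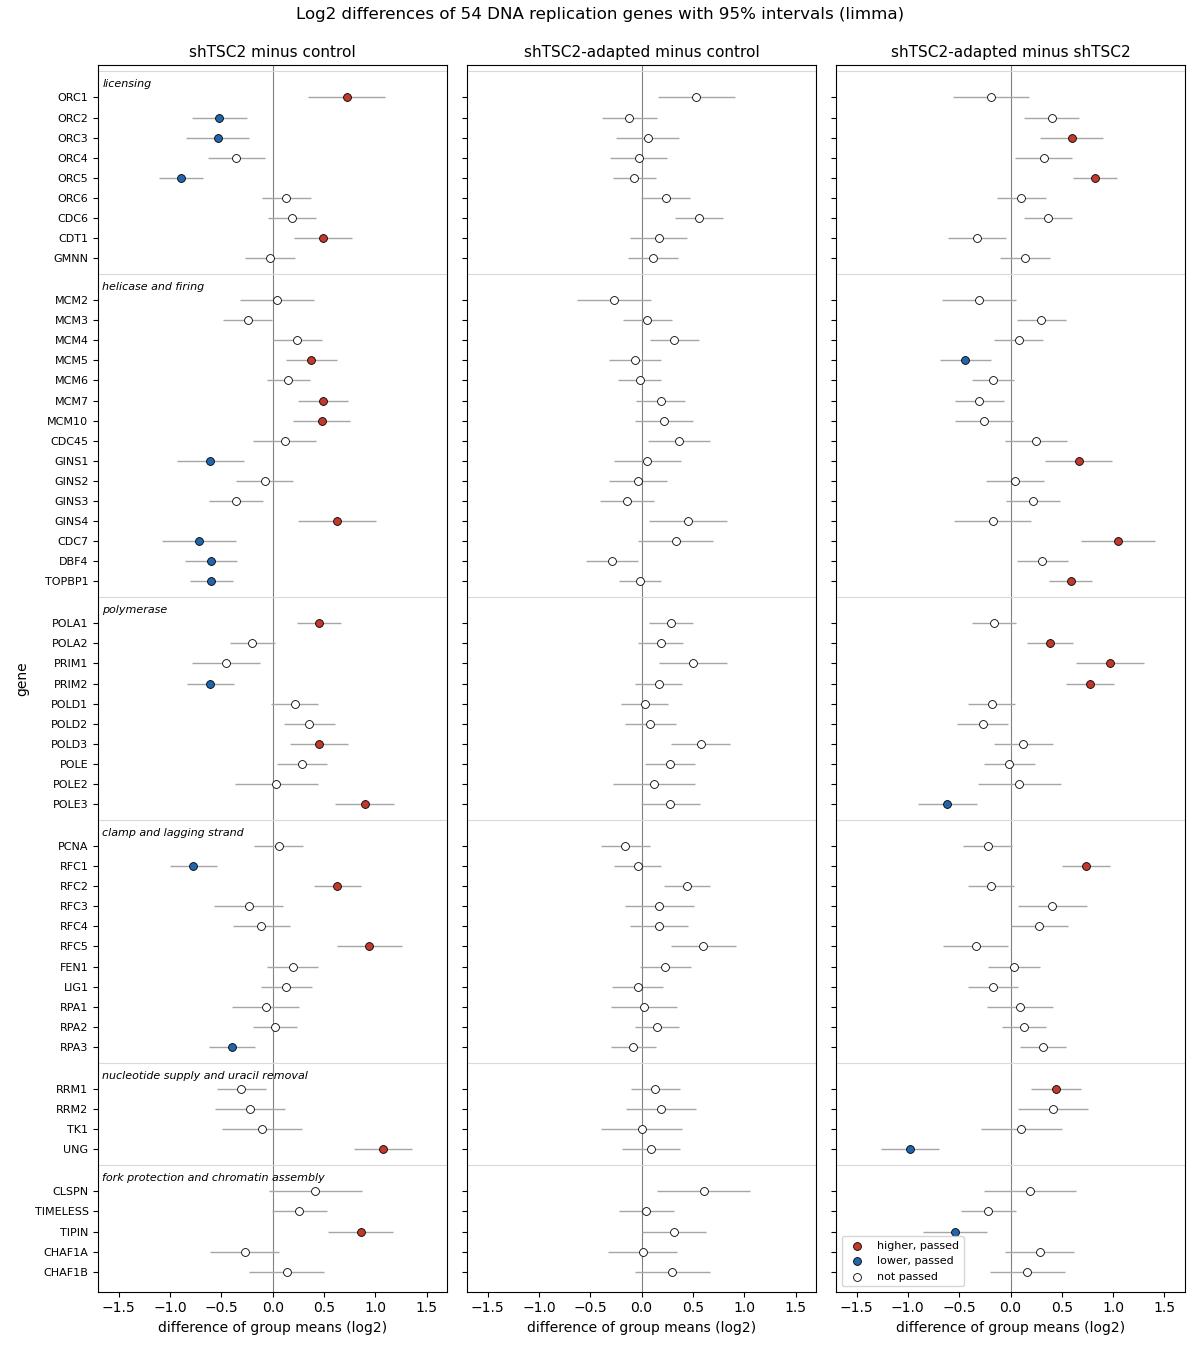
Log2 differences of group means (horizontal axes) with 95% intervals for the 54 replication genes, sorted by class (vertical axis), in the 3 comparisons; red points passed as higher, blue points passed as lower and open points did not pass. In shTSC2 minus control 13 points are red and 10 blue, in shTSC2-adapted minus control none is filled, and in shTSC2-adapted minus shTSC2 10 are red and 4 blue.

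The licensing genes of the origin recognition complex went in opposite directions in shTSC2 cells. ORC1, the largest subunit, had 8.34 and 7.91 in shTSC2, 7.81 and 8.06 in shTSC2-adapted and 7.47 and 7.34 in control, and rose by 0.72 (SE 0.16, adjusted p = 0.0184). ORC5, another subunit of the complex, had 7.77 and 7.69 in shTSC2, 8.54 and 8.57 in shTSC2-adapted and 8.64 and 8.61 in control. It fell in shTSC2 (difference -0.90, SE 0.09, adjusted p = 0.00102) and was higher in shTSC2-adapted cells than in shTSC2 cells by 0.83 (SE 0.09, adjusted p = 0.00309), with the shTSC2 arrays far below all others. ORC2 (-0.52, adjusted p = 0.0175) and ORC3 (-0.54, adjusted p = 0.0263) also fell, and ORC3 was higher in shTSC2-adapted cells than in shTSC2 cells (0.60, adjusted p = 0.0268). ORC4 stood at -0.36 (adjusted p = 0.0764) and ORC6 at 0.13 (adjusted p = 0.422), neither passing.

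CDT1, the loading factor that brings the MCM helicase to ORC, had 7.99 and 7.91 in shTSC2, 7.55 and 7.70 in shTSC2-adapted and 7.59 and 7.33 in control, and rose by 0.49 (SE 0.12, adjusted p = 0.0263). Its partner CDC6 stood at 0.19 in shTSC2 (adjusted p = 0.235) and GMNN, which encodes the CDT1 inhibitor geminin, at -0.03 (adjusted p = 0.877, 95% interval -0.27 to 0.21). Of the 9 licensing genes, 2 rose and 3 fell in shTSC2 (median -0.03), and 2 were higher and none lower in shTSC2-adapted cells than in shTSC2 cells (median 0.33). Apart from ORC5, the shTSC2 calls ended without control array 1 (adjusted p = 0.0878 for ORC1, 0.100 for ORC2, 0.143 for ORC3 and 0.0532 for CDT1) and without control array 2 (0.144, 0.139, 0.158 and 0.208), and those of ORC2, ORC3 and CDT1 also without shTSC2 array 1 (0.0536, 0.0774 and 0.0712). The call of ORC3 in shTSC2-adapted against shTSC2 ended without shTSC2 array 1 (0.0726), shTSC2-adapted array 2 (0.100) or either control array (0.0746).

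Among the 6 subunits of the MCM ring, the motor of the replicative helicase, MCM5 and MCM7 rose and none fell. MCM7 had 10.17 and 10.05 in shTSC2, 9.82 and 9.79 in shTSC2-adapted and 9.70 and 9.54 in control, a rise of 0.49 (SE 0.10, adjusted p = 0.0147) with every shTSC2 array above every control array. MCM5 had 9.66 and 9.46 in shTSC2, 9.06 and 9.18 in shTSC2-adapted and 9.19 and 9.18 in control. It rose by 0.38 (SE 0.11, adjusted p = 0.0459) and was lower in shTSC2-adapted cells than in shTSC2 cells (-0.44, adjusted p = 0.0374). The other subunits ran between -0.25 (MCM3, adjusted p = 0.137) and 0.24 (MCM4, adjusted p = 0.146), with MCM2 at 0.04 (adjusted p = 0.889) and MCM6 at 0.15 (adjusted p = 0.288) among them. MCM10, a factor that helps activate the assembled helicase, rose by 0.48 (SE 0.12, adjusted p = 0.0301).

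The GINS complex, which joins MCM and CDC45 in the active helicase, was split as well. GINS4 had 8.56 and 8.12 in shTSC2, 8.09 and 8.24 in shTSC2-adapted and 7.83 and 7.60 in control, and rose by 0.63 (SE 0.16, adjusted p = 0.0320). GINS1 had 7.92 and 7.96 in shTSC2, 8.52 and 8.69 in shTSC2-adapted and 8.74 and 8.36 in control, and fell (difference -0.61, SE 0.14, adjusted p = 0.0207), being higher in shTSC2-adapted cells than in shTSC2 cells (0.67, adjusted p = 0.0236). GINS2 (-0.08, adjusted p = 0.692) and GINS3 (-0.36, adjusted p = 0.0605) did not pass, nor did CDC45 (0.12, adjusted p = 0.587, 95% interval -0.19 to 0.42).

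CDC7, DBF4 and TOPBP1, which act in origin firing, fell in shTSC2, as did GINS1, while GINS4 and MCM10 rose. CDC7, the firing kinase, had 7.07 and 6.99 in shTSC2, 8.32 and 7.84 in shTSC2-adapted and 7.77 and 7.73 in control. It fell against control (difference -0.72, SE 0.15, adjusted p = 0.0160), and in shTSC2-adapted it was higher than in shTSC2 by 1.05 (SE 0.15, adjusted p = 0.00683), the largest rise of any of the 54 genes in that comparison. DBF4, its activating subunit, had 4.89 and 4.84 in shTSC2, 5.17 and 5.18 in shTSC2-adapted and 5.58 and 5.35 in control, all below the median of all probe sets (5.91), and fell (difference -0.60, SE 0.11, adjusted p = 0.00791). TOPBP1, a scaffold for helicase assembly and checkpoint signalling, had 8.96 and 8.93 in shTSC2, 9.54 and 9.52 in shTSC2-adapted and 9.56 and 9.53 in control. Its fall in shTSC2 (-0.60, SE 0.09, adjusted p = 0.00375) and its higher level in shTSC2-adapted cells than in shTSC2 cells (0.59, SE 0.09, adjusted p = 0.00772) rested on arrays that differed by at most 0.03 within a group.

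Of these 15 helicase and firing genes, 4 rose and 4 fell in shTSC2 (median 0.04), while 3 were higher and 1 lower in shTSC2-adapted cells than in shTSC2 cells (median 0.08). Without control array 1 the shTSC2 calls of MCM5, MCM7, MCM10, GINS1, GINS4, CDC7 and DBF4 ended (adjusted p = 0.204, 0.0589, 0.114, 0.144, 0.0916, 0.113 and 0.0811), and without control array 2 those of MCM5, MCM7, MCM10, GINS4 and CDC7 (0.229, 0.143, 0.211, 0.224 and 0.104). Without shTSC2 array 1 those of MCM5, MCM10, GINS1 and GINS4 ended (0.128, 0.0800, 0.0563 and 0.0845), and without shTSC2 array 2 that of CDC7 (0.0502). Leaving out either shTSC2-adapted array, which leaves the same fit for this comparison, ended those of MCM5, MCM10 and GINS4 (0.0621, 0.0522 and 0.0536). In shTSC2-adapted against shTSC2, the MCM5 call ended without any array except shTSC2 array 2 (0.0850 to 0.173), and that of GINS1 without shTSC2 array 1 (0.0586), shTSC2-adapted array 1 (0.0737) or shTSC2-adapted array 2 (0.115).

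The polymerase alpha-primase complex, which starts each new strand with an RNA-DNA primer, held a rise and a fall. POLA1, the DNA polymerase subunit, had 8.68 and 8.68 in shTSC2, 8.50 and 8.53 in shTSC2-adapted and 8.27 and 8.18 in control, and rose by 0.46 (SE 0.09, adjusted p = 0.0125). PRIM2, the large primase subunit, had 7.71 and 7.57 in shTSC2, 8.37 and 8.46 in shTSC2-adapted and 8.26 and 8.24 in control. It fell in shTSC2 (difference -0.61, SE 0.10, adjusted p = 0.00518) and was higher in shTSC2-adapted cells than in shTSC2 cells by 0.78 (SE 0.10, adjusted p = 0.00428). PRIM1, the primase catalytic subunit, had 8.92 and 9.25 in shTSC2, 10.18 and 9.92 in shTSC2-adapted and 9.51 and 9.58 in control. Both of its shTSC2-adapted arrays lay above all others, and it was higher there than in shTSC2 by 0.97 (SE 0.14, adjusted p = 0.00681), while its shTSC2 value of -0.46 did not pass (adjusted p = 0.0587). POLA2, the regulatory subunit, stood at -0.20 in shTSC2 (adjusted p = 0.185) and was higher in shTSC2-adapted cells than in shTSC2 cells (0.39, adjusted p = 0.0375). That call ended under 14 of the 16 alternative settings.

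Among the elongating polymerases, delta and epsilon, only rises were called in shTSC2. POLE3, a histone-fold subunit of polymerase epsilon, had 9.22 and 9.29 in shTSC2, 8.52 and 8.76 in shTSC2-adapted and 8.47 and 8.25 in control. It rose by 0.90 (SE 0.12, adjusted p = 0.00286) and was lower in shTSC2-adapted cells than in shTSC2 cells (difference -0.62, SE 0.12, adjusted p = 0.0202). POLD3, an accessory subunit of polymerase delta, rose by 0.45 (SE 0.12, adjusted p = 0.0379). The catalytic subunits POLD1 (0.22, adjusted p = 0.171) and POLE (0.29, adjusted p = 0.101) did not pass, nor did POLD2 (0.36, adjusted p = 0.0547) or POLE2 (0.04, adjusted p = 0.915).

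Over the 10 polymerase genes, 3 rose and 1 fell in shTSC2 (median 0.25), and 3 were higher and 1 lower in shTSC2-adapted cells than in shTSC2 cells. Without control array 1 the shTSC2 calls of POLA1, PRIM2 and POLD3 ended (adjusted p = 0.0742, 0.0572 and 0.162), likewise without control array 2 (0.127, 0.0586 and 0.216), and that of POLD3 also without shTSC2 array 1 (0.113). In shTSC2-adapted against shTSC2 the POLE3 call ended without shTSC2-adapted array 1 (0.110), and that of POLA2 without each of the 6 arrays (0.0634 to 0.141).

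Replication factor C, the 5-subunit loader of the PCNA clamp, showed the widest spread of the complexes in shTSC2 against control. Its highest and lowest differences lay 1.715 apart, against 1.615 in the origin recognition complex. In the other comparisons another complex was slightly wider. RFC5 had 9.77 and 9.43 in shTSC2, 9.35 and 9.17 in shTSC2-adapted and 8.70 and 8.62 in control, and rose by 0.94 (SE 0.14, adjusted p = 0.00331). RFC2 had 10.12 and 10.08 in shTSC2, 9.95 and 9.87 in shTSC2-adapted and 9.53 and 9.41 in control, and rose by 0.63 (SE 0.10, adjusted p = 0.00424). RFC1, the large subunit, had 8.79 and 8.74 in shTSC2, 9.54 and 9.46 in shTSC2-adapted and 9.47 and 9.61 in control. It fell in shTSC2 (difference -0.78, SE 0.10, adjusted p = 0.00213) and was higher in shTSC2-adapted cells than in shTSC2 cells by 0.74 (SE 0.10, adjusted p = 0.00511), with shTSC2-adapted and control arrays overlapping. RFC3 (-0.24, adjusted p = 0.303) and RFC4 (-0.11, adjusted p = 0.572) did not pass, but without shTSC2 array 1 RFC3 passed in shTSC2 against control (-0.45, adjusted p = 0.0313) and in shTSC2-adapted against shTSC2 (0.62, adjusted p = 0.0163). Without shTSC2 array 2 RFC5 was lower in shTSC2-adapted than in shTSC2 cells (-0.51, adjusted p = 0.0387).

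PCNA, the clamp that tethers polymerases to DNA, had 9.29 and 9.20 in shTSC2, 8.98 and 9.07 in shTSC2-adapted and 9.26 and 9.11 in control, and its difference of 0.06 in shTSC2 did not pass (adjusted p = 0.728, 95% interval -0.18 to 0.30). FEN1, the flap nuclease, and LIG1, the ligase that seals Okazaki fragments, stood at 0.20 and 0.13 (adjusted p = 0.251 and 0.441). RPA3, the smallest subunit of the RPA complex that coats exposed DNA strands, fell (difference -0.40, SE 0.09, adjusted p = 0.0247), while RPA1 (-0.07, adjusted p = 0.769) and RPA2 (0.02, adjusted p = 0.910) did not pass. Of the 11 genes of clamp and lagging strand, 2 rose and 2 fell in shTSC2 (median 0.02), and RFC1 was the only call in shTSC2-adapted against shTSC2. The call of RFC2 ended without control array 2 (adjusted p = 0.0616), and that of RPA3 without control array 1 (0.175), control array 2 (0.131) or shTSC2 array 2 (0.0644).

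In shTSC2 against control none of the 3 nucleotide supply genes passed, whereas UNG, the glycosylase that removes uracil from DNA, had the largest rise of the 54 genes in shTSC2. UNG had 9.05 and 8.98 in shTSC2, 7.91 and 8.17 in shTSC2-adapted and 8.03 and 7.86 in control. Its rise of 1.07 (SE 0.12, adjusted p = 0.00145) is 2.10-fold, and in shTSC2-adapted it was lower than in shTSC2 (difference -0.98, SE 0.12, adjusted p = 0.00396), its shTSC2-adapted and control arrays overlapping. RRM1, the large subunit of ribonucleotide reductase, which makes deoxynucleotides, had 10.48 and 10.39 in shTSC2, 10.81 and 10.94 in shTSC2-adapted and 10.81 and 10.67 in control. It stood at -0.31 in shTSC2 (adjusted p = 0.0806) and was higher in shTSC2-adapted cells than in shTSC2 cells by 0.44 (SE 0.10, adjusted p = 0.0340). RRM2, the small subunit, did not pass in either comparison (-0.23, adjusted p = 0.332 against control and 0.41, adjusted p = 0.119 for shTSC2-adapted against shTSC2), but in the second it passed without shTSC2 array 2 (0.61, adjusted p = 0.0227). TK1, the thymidine salvage kinase, had 10.91 and 10.38 in shTSC2, 10.70 and 10.80 in shTSC2-adapted and 10.80 and 10.70 in control, with all groups overlapping (difference -0.11, adjusted p = 0.711). The RRM1 call ended without any array except shTSC2 array 1 (adjusted p = 0.0804 to 0.144).

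In the fork protection and chromatin assembly class, TIPIN was the only call. TIPIN, which with TIMELESS stabilises stalled forks, had 9.51 and 9.68 in shTSC2, 9.01 and 9.10 in shTSC2-adapted and 8.91 and 8.57 in control. It rose in shTSC2 by 0.86 (SE 0.13, adjusted p = 0.00473) and was lower in shTSC2-adapted cells than in shTSC2 cells (difference -0.54, SE 0.13, adjusted p = 0.0406). Its partner TIMELESS stood at 0.26 in shTSC2 (adjusted p = 0.160). The checkpoint mediator CLSPN had the highest value that did not pass (0.42, adjusted p = 0.183, 95% interval -0.04 to 0.87), and its other probe set, at 0.58, did not pass either (adjusted p = 0.0695). CHAF1A (-0.28, adjusted p = 0.228) and CHAF1B (0.14, adjusted p = 0.600), subunits of the chromatin assembly factor that places histones behind the fork, did not pass. The TIPIN call in shTSC2-adapted against shTSC2 ended without any array except shTSC2 array 1 (0.0548 to 0.181).

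Some calls near the threshold also ended, and others were gained, under other settings. In shTSC2 against control, quantile normalization ended those of ORC3 (adjusted p = 0.0641) and RPA3 (0.0540), and median centring those of CDT1 (0.0555), MCM5 (0.115) and POLD3 (0.0743). The replicate block ended those of MCM5 (0.0695) and POLD3 (0.0590), and an intensity trend in the prior that of MCM5 (0.0561). In shTSC2-adapted against shTSC2, quantile normalization ended those of ORC3 (0.0514), POLA2 (0.0807) and RRM1 (0.0510), and array weights those of MCM5 (0.0577), GINS1 (0.0654), POLA2 (0.0797), RRM1 (0.0686) and TIPIN (0.100). There the replicate block ended those of MCM5 (0.0601), POLA2 (0.0583), RRM1 (0.0554) and TIPIN (0.0631), median centring those of MCM5 (0.0523), POLA2 (0.0570) and TIPIN (0.0520), and removal of the length trend those of ORC3 (0.0604), POLA2 (0.0596) and RRM1 (0.0526). In shTSC2 against control, quantile normalization gained rises of MCM4 (adjusted p = 0.0434), POLD1 (0.0421), POLD2 (0.0185), POLE (0.0277) and TIMELESS (0.0418), and median centring gained falls of GINS3 (0.0354) and PRIM1 (0.0323). With dim genes left out GINS3, PRIM1 and POLD2 passed (0.0498, 0.0391 and 0.0470). GINS3 also passed without shTSC2 array 1 (0.0190), PRIM1 with array weights (0.0438) or without shTSC2 array 2 (0.0215), and POLD2 with only the 4 arrays compared or without either shTSC2-adapted array (0.0446) and with centring on the genes tested (0.0322). ORC2 passed as higher in shTSC2-adapted cells than in shTSC2 cells with dim genes left out (0.0498) and CDC6 with the length trend removed (0.0384). ORC5, CDC7, TOPBP1, PRIM1, PRIM2, RFC1 and UNG passed in that comparison under all 16 alternative settings. Among these, only the 4 arrays compared and leaving out either control array are the same fit.

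**Figure D3:**
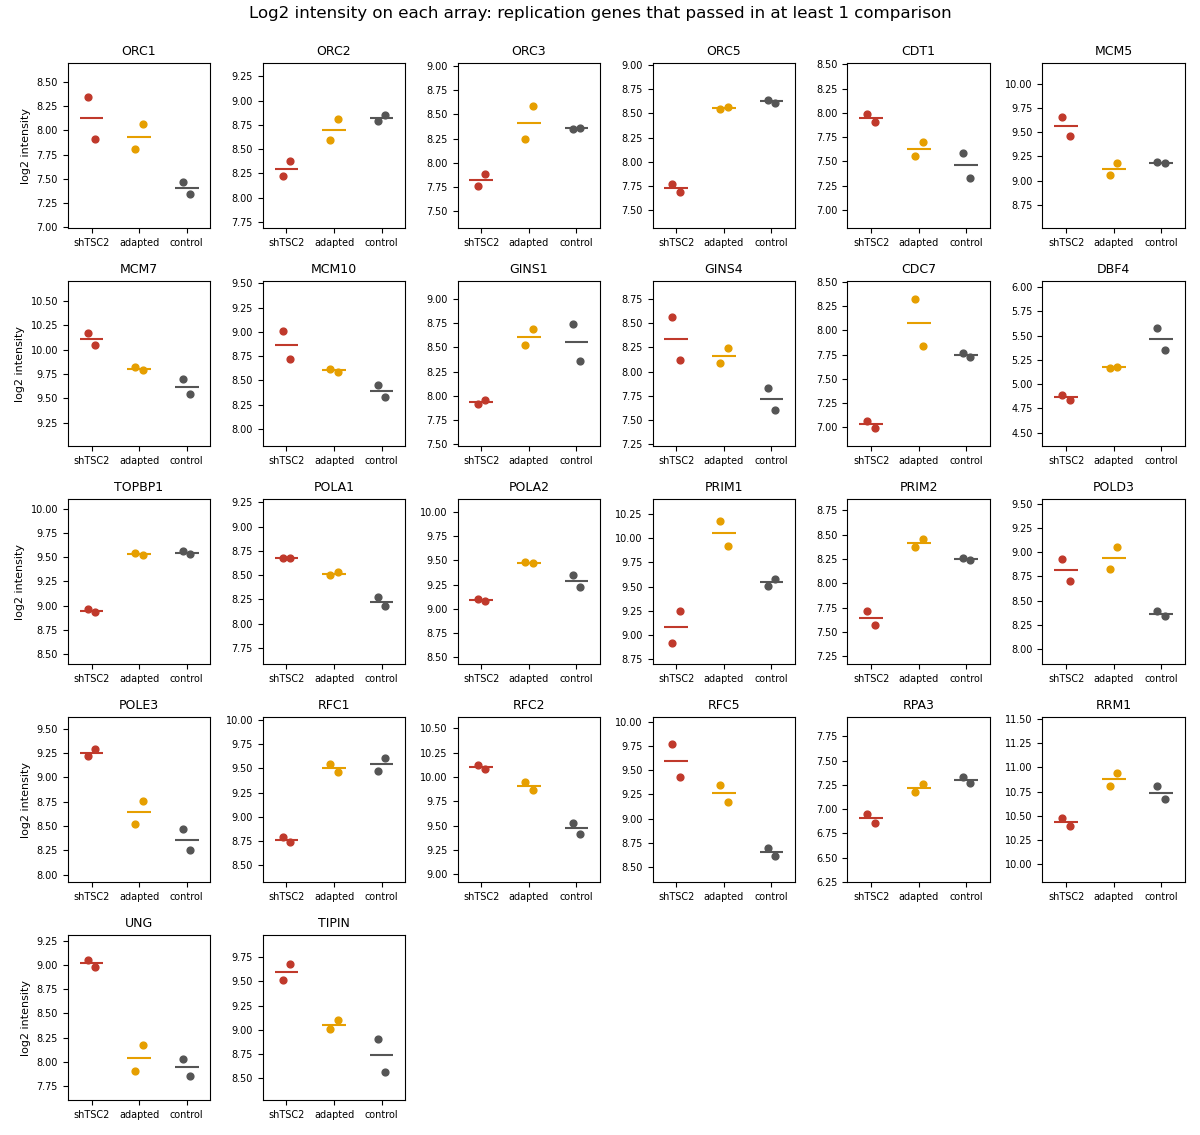
Log2 intensity (vertical axes, each spanning 1.7 units) on the 2 arrays of shTSC2, shTSC2-adapted and control cells, for the 26 replication genes that passed in at least 1 comparison; points are arrays and lines group means. In ORC5, TOPBP1 and RFC1 the shTSC2 arrays lie below all others, and in UNG and POLE3 they lie above all others.

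In shTSC2-adapted cells no replication gene passed against control, although 39 of the 54 differences were above 0 and 14 below (median 0.14, against -0.01 over all genes, shown as a description). Limma gave 14 of 54 (25.9%) an unadjusted p of at most 0.05, against 12.6% of all genes. By class the medians were 0.11 for licensing, 0.06 for helicase and firing, 0.23 for polymerases, 0.15 for clamp and lagging strand, 0.12 for nucleotide supply and uracil removal and 0.30 for fork protection and chromatin assembly. All 10 polymerase genes and all 5 genes of the last class had a difference above 0 here, none past the threshold. The lowest adjusted p belonged to CDC6, the licensing ATPase, which had 10.36 and 10.38 in shTSC2, 10.75 and 10.72 in shTSC2-adapted and 10.27 and 10.09 in control. Its shTSC2-adapted arrays were the highest of the 6, at 0.56 above control (95% interval 0.32 to 0.79, adjusted p = 0.0812). RFC5 (0.60, 95% interval 0.28 to 0.92, adjusted p = 0.127), POLD3 (0.58, 95% interval 0.29 to 0.86, adjusted p = 0.111) and CLSPN (0.61, 95% interval 0.15 to 1.06, adjusted p = 0.251) had the other highest differences. The lowest was DBF4 (-0.29, 95% interval -0.54 to -0.04, adjusted p = 0.321). With array weights CDC6, POLD3 and RFC5 passed, and RFC5 also did with only the 4 arrays compared or without either shTSC2 array, so 0 calls is a statement about this fit and not about equal levels.

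Gene length moved with the shTSC2 comparison. Genes are not independent replicates, but across 16902 that code for proteins the difference from control ran against the gene's span in the reference (Spearman rho -0.33), and for shTSC2-adapted minus shTSC2 rho was 0.33. Spans had a median of 24.7 kb among the replication genes that rose and 70.3 kb among those that fell, with 27.3 kb over all protein-coding genes. The longest riser was POLA1 at 303 kb, and the shortest that fell was CDC7 at 24.9 kb. With the trend over length removed from each array, 13 genes rose and 9 fell. The calls of ORC3 (adjusted p = 0.0759), CDT1 (0.0847), PRIM2 (0.0609) and RPA3 (0.105) ended, and GINS3 (0.0233), PRIM1 (0.0474) and POLE (0.0432) passed instead. The falls of ORC5 (-0.76) and RFC1 (-0.65) and the rise of UNG (0.97) remained.

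**Figure D4:**
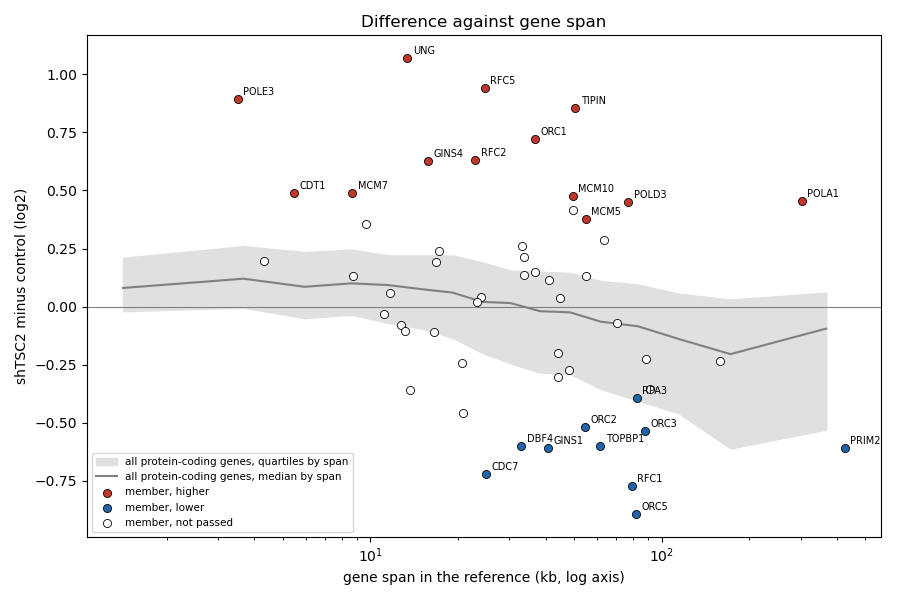
Difference shTSC2 minus control (vertical axis, log2) against gene span in the reference (horizontal axis, kb, log scale) for the 54 replication genes, over the median and quartiles of all protein-coding genes in 16 groups by span. The median spans are 24.7 kb for the 13 that rose and 70.3 kb for the 10 that fell.

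Genes near the replication fork that were not among the 54 were called in shTSC2 at a share close to that of all genes. Of 39 measured genes of a further replication list, 4 rose and 6 fell in shTSC2 (25.6%, with a median of 0.01). Over all genes 20.8% were called there, 6.87% higher and 13.9% lower. In shTSC2-adapted cells 6 of the 39 were higher and 2 lower than in shTSC2 cells (20.5%). Over all genes 12.5% were called in that comparison, 9.25% higher and 3.24% lower. ASF1A, a histone chaperone, had 6.09 and 6.11 in shTSC2, 7.80 and 7.64 in shTSC2-adapted and 7.89 and 7.90 in control. It fell in shTSC2 (difference -1.80, SE 0.10, adjusted p = 0.000256) and was higher in shTSC2-adapted cells than in shTSC2 cells by 1.62 (SE 0.10, adjusted p = 0.00106). RAD17, part of the loader of the checkpoint clamp, fell (-1.31, SE 0.13, adjusted p = 0.000961). The largest rises were in DSCC1, part of a clamp loader for sister chromatid cohesion (0.78, SE 0.20, adjusted p = 0.0324), and RNASEH1, which degrades RNA in RNA-DNA hybrids (0.76, SE 0.10, adjusted p = 0.00217). DNA2, a nuclease and helicase of fork processing, was higher in shTSC2-adapted cells than in shTSC2 cells (0.95, adjusted p = 0.00290), where RAD9A (-0.57, adjusted p = 0.0240), of the checkpoint clamp, and RNASEH1 (-0.45, adjusted p = 0.0263) were lower. The DSCC1 call ended without control array 1 (0.0754), control array 2 (0.226) or shTSC2 array 2 (0.114). In shTSC2-adapted against shTSC2 the RAD9A call ended without either control array or either shTSC2-adapted array (0.0701 to 0.108), and the RNASEH1 call without any array except shTSC2 array 1 (0.0612 to 0.130).

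For contrast, all 24 measured genes of a mitosis list fell in shTSC2 (median -1.51, highest -0.63), against 10 of 54 replication genes (median 0.05). Over all genes tested, 13.9% fell there. The list was chosen with earlier results of these data known, so its counts are a description and not independent of that choice. In shTSC2-adapted, 4 of the 24 were lower than control (median -0.63) and 21 were higher than shTSC2 (median 0.83), against 0 and 10 of the 54. Of all genes tested, 0.206% were lower than control and 9.25% higher than shTSC2. The count of 4 depended on the setting, at 13 with median centring, 10 with dim genes left out, 12 with only the 4 arrays compared or without either shTSC2 array, 15 with array weights, 7 with centring on the genes tested and 0 with the replicate block or without any 1 of the control and shTSC2-adapted arrays. The count of 21 ran between 14, without shTSC2-adapted array 2, and 22, and the falls in shTSC2 numbered 22 without either control array. KIF20A and CENPE, a kinesin of cytokinesis and a kinetochore kinesin, had the lowest values against control in shTSC2-adapted (-1.37, adjusted p = 0.0261, and -1.29, adjusted p = 0.0289). Both calls ended when any 1 of the arrays compared was left out, as did every other call in that comparison. Their differences were then -1.555 to -1.185 for KIF20A and -1.375 to -1.195 for CENPE. ASPM, a spindle pole protein, and KIF14, a mitotic kinesin, had the largest rises in shTSC2-adapted against shTSC2 (1.73, adjusted p = 0.00214, and 1.44, adjusted p = 0.00330). The difference between the lists was not tested.

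**Figure D5:**
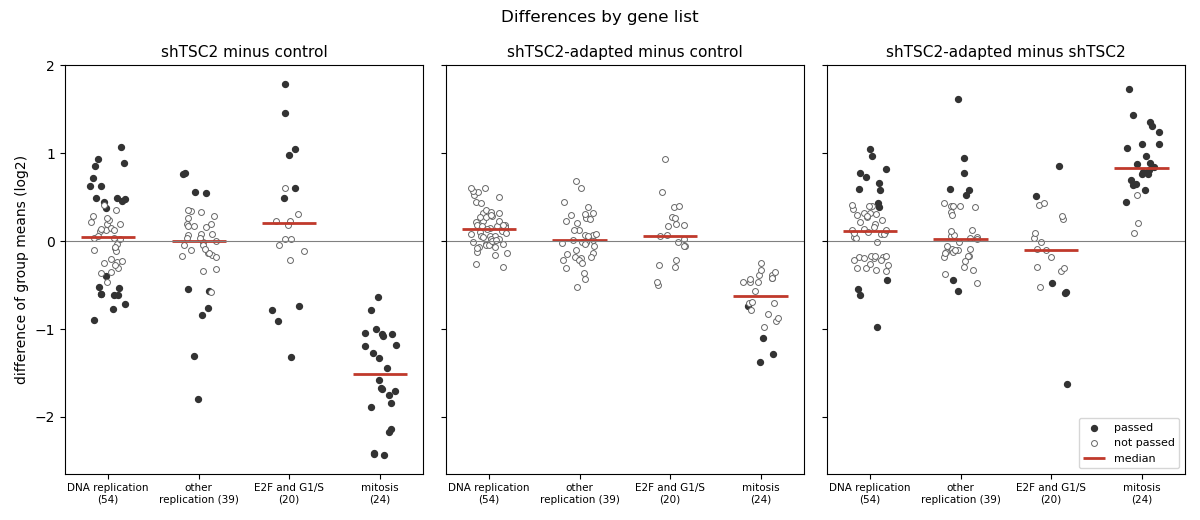
Log2 differences of group means (vertical axis) for the 54 replication genes, 39 other replication genes, 20 E2F and G1/S regulators and 24 mitotic genes in the 3 comparisons; filled points passed, open points did not, and red lines are list medians. In shTSC2 minus control the medians are 0.05, 0.01, 0.21 and -1.51 in that order.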

How the data were processed

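Expression was measured on 6 arrays. Per the submitters' processing notes the authors used RMA (version and probe definition not given in the sources used here), and their deposited intensities are linear. RMA brings arrays towards a like distribution, which can hide a shift common to most transcripts. The deposited arrays were not fully alike, with median intensities of 58.1 to 63.1. The deposited intensities were converted to log2. Of 33297 probe sets, 19460 carry 1 gene symbol in the platform annotation, 1754 several and 12083 none; the highest-mean set per gene was kept (18417 genes). Of the 54 genes only CLSPN had another set. The test was limma's moderated two-sided test (version 3.58.1, R 4.3.3), with all 6 arrays in a single model of the 3 groups, Benjamini-Hochberg adjustment over all genes and a threshold of 0.05. On simulated data it recovered 15.5 to 17.9% of changes of 0.5 log2 and 69.6 to 72.5% of changes of 1. A gene that did not pass may therefore still differ by such sizes. The simulation changed 200 genes, fewer than the 3833 called in shTSC2 against control. Groups came from the labels. The genes, classes and lists were chosen with earlier results of these data known. Genes named are the members that passed in a comparison, the highest and lowest of the others per class, and the 2 largest rises and falls of other lists; further members were named to account for each. The alternatives were quantile normalization, 2 kinds of median centring, dim genes left out, only the arrays compared, a replicate block, array weights, every probe set tested, an intensity trend, gene length and leaving out each array. Gene spans, used without coordinates, and promoter windows are RefSeq's (GRCh38.p14). Groups of 2 are too small for a check for outlying arrays.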

Additional observations from a re-analysis of the deposited data

How the results depend on the processing

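No value for the 54 genes that passed the threshold, as reported or under an alternative run, changed direction, while 57 values that passed in neither did, all of them at most 0.19 in size as reported. Over 54 genes, 3 comparisons and 16 alternatives (DBF4 not tested with dim genes left out), 114 values lost a call, 32 gained one and 2443 kept their side of the threshold. In each comparison, only the 4 arrays compared and leaving out either array of the group not compared are the same fit. These tallies therefore count that fit 3 times. In shTSC2 against control, leaving out 1 array gave 4 to 13 rises and 3 to 10 falls, and the other settings 10 to 18 and 8 to 12. In shTSC2-adapted against control there were 0 rises and 0 falls, except 1 rise with only the 4 arrays compared, 3 with array weights and 0 to 1 without 1 array. In shTSC2-adapted against shTSC2, leaving out 1 array gave 6 to 9 genes higher and 1 to 4 lower; those lower numbered 2 in place of 4 with median centring, only the 4 arrays compared, array weights or the replicate block, and the genes higher numbered 7 to 11 under the other settings. Over all genes, shTSC2 against control gave 3833 calls, 1484 without control array 1, 1175 without control array 2, 3895 without shTSC2 array 1 and 3840 without shTSC2 array 2. For shTSC2-adapted against control the 48 calls became 1 with the replicate block, 437 with array weights, 199 and 90 with the 2 centrings, 121 with dim genes left out, 248 with only the 4 arrays compared and 0 without any 1 of the arrays compared (at least 1081 genes at an unadjusted p of at most 0.05 by limma). For shTSC2-adapted against shTSC2 the 2300 calls became 1113 with only those 4 arrays, 837 without shTSC2-adapted array 1 and 1181 without shTSC2-adapted array 2. The cause was not tested. The labels do not say whether same-numbered arrays shared a culture or a day. Deviations of same-numbered arrays correlated at -0.10, -0.19 and 0.21 between groups, which cannot settle it with 2 arrays in each group. With the replicate block 11 members rose and 10 fell in shTSC2, against 13 and 10 without it. Centring on the median of the genes tested was chosen after seeing the data. DBF4 lay below the median of all probe sets, where signal over background limits what can be seen.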

Other observations

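Transcription factors and cyclins that act upstream of the replication genes also moved in both directions. Of 20 E2F and G1/S regulators, 6 rose and 4 fell in shTSC2 (50.0%, against 20.8% of all genes), with a median of 0.21. This list too was chosen with earlier results of these data known, so its counts are a description. CCNE1, the cyclin of S-phase entry, had 9.36 and 9.14 in shTSC2, 7.39 and 7.87 in shTSC2-adapted and 7.62 and 7.30 in control, and rose by 1.79 (SE 0.18, adjusted p = 0.00102). CDC25A, a phosphatase that activates cyclin-dependent kinases, had 8.13 and 8.52 in shTSC2, 7.62 and 7.98 in shTSC2-adapted and 6.95 and 6.78 in control, and rose by 1.46 (SE 0.17, adjusted p = 0.00158). The E2F partner TFDP2 (-1.32, SE 0.11, adjusted p = 0.000596) and the E2F family member E2F5 (-0.91, SE 0.11, adjusted p = 0.00209), usually counted among the repressor E2Fs, fell. In shTSC2-adapted against shTSC2, TFDP2 (0.86, adjusted p = 0.00454) and the pocket protein RBL2 (0.52, adjusted p = 0.0310) were higher, while CCNE1 (-1.62, adjusted p = 0.00332) and E2F7 (-0.60, adjusted p = 0.0219) were lower. The RBL2 call there ended without any 1 of the shTSC2 and shTSC2-adapted arrays (adjusted p = 0.0501 to 0.130), and that of E2F7 without any array except shTSC2 array 1 (0.0509 to 0.121). None of the 20 passed in shTSC2-adapted against control (lowest adjusted p 0.0818, limma, with 7 of 20 at an unadjusted p of at most 0.05). CDC25A (0.935) passed there with dim genes left out (limma adjusted p = 0.0455), only the 4 arrays compared (0.0386) or array weights (0.0207). With array weights E2F1 (0.565, adjusted p = 0.0333) and E2F5 (-0.495, adjusted p = 0.0467) passed too. The lack of calls in the main fit is therefore not a statement about equal levels.

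Matches to promoter motifs were set beside the calls as a description, on sets chosen by their change. An E2F motif was in 5 of 10 replication genes that rose in shTSC2 and had a window, in 2 of 9 that fell and in 9 of 29 that did not pass. The genes with a match that rose were CDT1, MCM7, POLA1, UNG and TIPIN, and those that fell were ORC3 and CDC7. These windows and letters say nothing of whether a factor was bound.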
